A study of Mus musculus with 12 samples.

Results

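The collagen genes and the integrin chain genes of mouse embryonic stem cells were examined with and without retinoic acid and with and without its nuclear receptors. They were taken by name from a gene table of 23668 rows: every symbol made of Col, a number, a and a number, without Col4a1 and Col4a2, and every symbol that starts with Itga or Itgb, without Itgb1bp1 and Itgb3bp. This gave 71 genes, 42 collagen genes and 29 genes with an integrin symbol. Of the 29, Itgb1bp2 and Itgbl1 share the name but are not integrin chains.

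The cells were wild type (WT) or lacked, by their label, the retinoic acid receptors alpha, beta and gamma (TKO). Both were of strain SV129 and grew on gelatin with leukemia inhibitory factor in the medium. Each received ethanol as vehicle or all-trans retinoic acid (ATRA, the natural agonist of these receptors) at 1 uM for 24 h. The 4 groups were WT with vehicle, WT with ATRA, TKO with vehicle and TKO with ATRA, with 3 libraries each, named D, F and G in the table. The labels name no separate cultures behind the libraries of a group, so p-values measure the spread between these libraries, and they name no number of lines per genotype, so loss of the receptors and other differences between the lines cannot be told apart.

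Collagens are trimers of alpha chains. Fibrillar collagens build fibres, network collagens build sheets such as the basement membrane, and further classes sit on fibres, form beaded filaments or span the cell membrane. Integrins are cell surface receptors made of 1 alpha and 1 beta chain: the pair decides whether a cell binds laminin, fibronectin, collagen or other cells, and links that ligand to the actin cytoskeleton. Embryonic stem cells attach mainly through integrins that contain the beta chain encoded by Itgb1. Retinoic acid receptors are transcription factors that bind DNA and switch on target genes when ATRA is bound, and ATRA is widely used to push embryonic stem cells into differentiation.

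Levels are FPKM, the authors' fragment counts divided by transcript length and library size, so they can be set side by side between genes. Of the 71 genes, 22 (10 collagens and 12 integrin chains) reached 1 FPKM in at least 3 of the 12 libraries and were tested. The other 49 stayed at or below 1.3 FPKM in every library. All 8 stem cell markers examined, among them Pou5f1, Nanog and Sox2, were above 1 FPKM in every group. Their summed levels were 7834 to 8999 in WT with vehicle, 5187 to 6383 in WT with ATRA, 6592 to 7046 in TKO with vehicle and 6518 to 6828 in TKO with ATRA. With ATRA in WT 7 of the 8 fell, Zfp42 from a mean of 544 to 153 FPKM and Pou5f1 from 1351 to 829, and none was called in TKO. Of 10 fibroblast or feeder markers, Lum and Fap were at 0 in all groups, and the summed levels were 11.4 to 16.8 in WT and 16.5 to 20.6 in TKO. The 3 that could be tested moved in different directions: with ATRA in WT Pdgfrb rose from 1.84 to 7.39 FPKM (adjusted p = 0.000176) and Thy1 fell from 10.96 to 5.72 (adjusted p = 0.00234), and with vehicle Tagln was at 0.650 in WT and 3.63 in TKO (adjusted p = 0.000222). Tagln was tested only through TKO libraries, where it was high. Group means for the targeted genes were 11.1 FPKM in WT and 8.54 in TKO with vehicle for Rara, 0.361 and 0.132 for Rarb, and 48.0 and 14.9 for Rarg; no source used here names the deleted exons, so these gene totals do not check the label. Differences below were computed from log2(FPKM + 1), which makes changes of genes near or below 1 FPKM look smaller than they are, with standard errors and Benjamini-Hochberg adjusted p-values from limma over all 12362 genes tested; a gene is called when the adjusted p is under 0.05.

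The integrin genes with the highest levels were those of laminin and fibronectin receptors, and the alpha chains of the collagen receptors stayed below 1 FPKM. In WT with vehicle Itga6, Itgb1, Itga5 and Itga3 had the highest levels, in that order, with Itga6 and Itgb1 close to each other (55.7 ± 2.25 and 54.0 ± 0.286 FPKM, SD, n = 3). Itga6 encodes the alpha 6 chain of laminin receptors, which pairs with the beta 1 or beta 4 chain, and Itgb1 encodes the beta chain shared by most matrix-binding integrins. All 4 alpha chains of the collagen receptors (Itga1, Itga2, Itga10 and Itga11) stayed below the level needed for a test, the highest value being 0.588 FPKM for Itga11. Itga6, Itga5 and Itga3 made up 42.1%, 28.8% and 16.8% of the summed FPKM of the 18 alpha chains, and Itgb1 made up 65.7% of that of the 9 beta chains.

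Among the 42 collagen genes of the set, which leave out Col4a1 and Col4a2, a single gene stood far above the rest. Col18a1 encodes the chain of collagen XVIII, a basement membrane collagen that carries heparan sulfate and from which endostatin is cut, and in WT with vehicle it gave 65.4% ± 10.2 (SD, n = 3) of the summed FPKM of the 42 collagen genes. Col9a2, a chain of collagen IX that decorates cartilage fibres, and Col13a1, the chain of a collagen that spans the cell membrane and sits at adhesion sites, followed with 6.83 ± 1.98 and 5.63 ± 1.84 FPKM. The classic fibril genes were near the bottom: Col3a1 did not pass 0.0119 FPKM in any library, Col1a2 not 0.106 and Col1a1 not 0.880. The 4 basement membrane network genes of the set, Col4a3 to Col4a6, stayed at or below 0.254 FPKM. The network genes left out of the set were higher. Col4a1 and Col4a2 had means of 20.8 and 9.92 FPKM in WT with vehicle, above Col9a2 and Col13a1. In TKO with vehicle their means were 47.6 and 22.1.

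**Figure D1:**
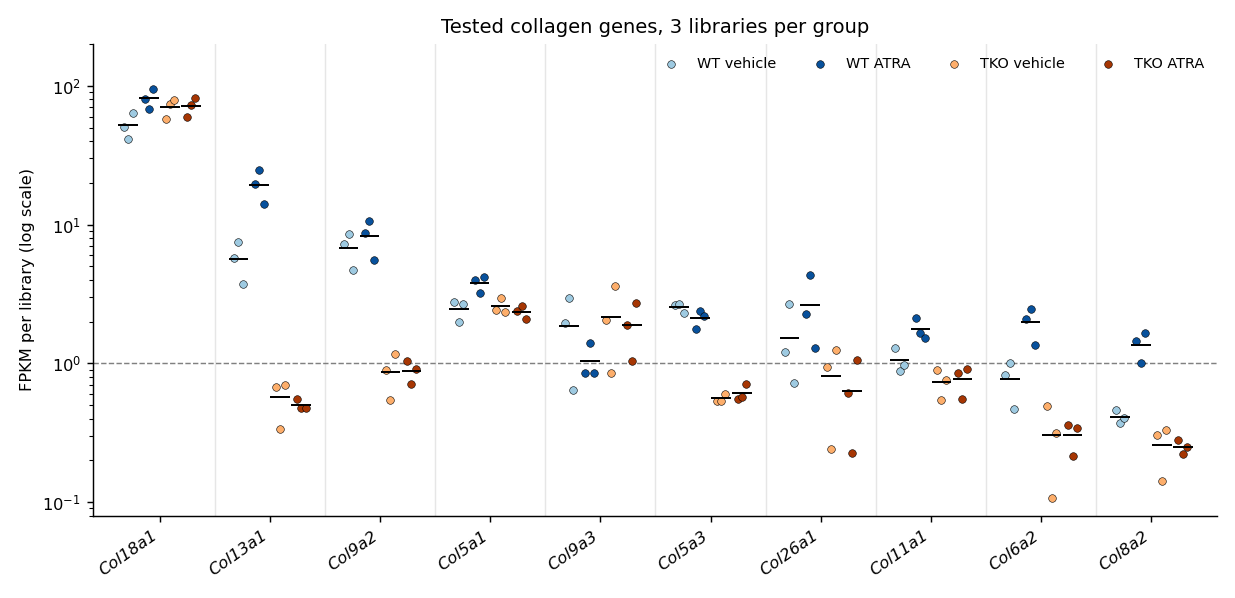
FPKM (log scale) of the 10 tested collagen genes in each library (points) with the group mean (short line), for WT and TKO cells with vehicle or ATRA; the dashed line marks 1 FPKM. Col18a1 lies far above the other genes in all 4 groups, and Col13a1 separates WT with ATRA, WT with vehicle and both TKO groups.

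**Figure D2:**
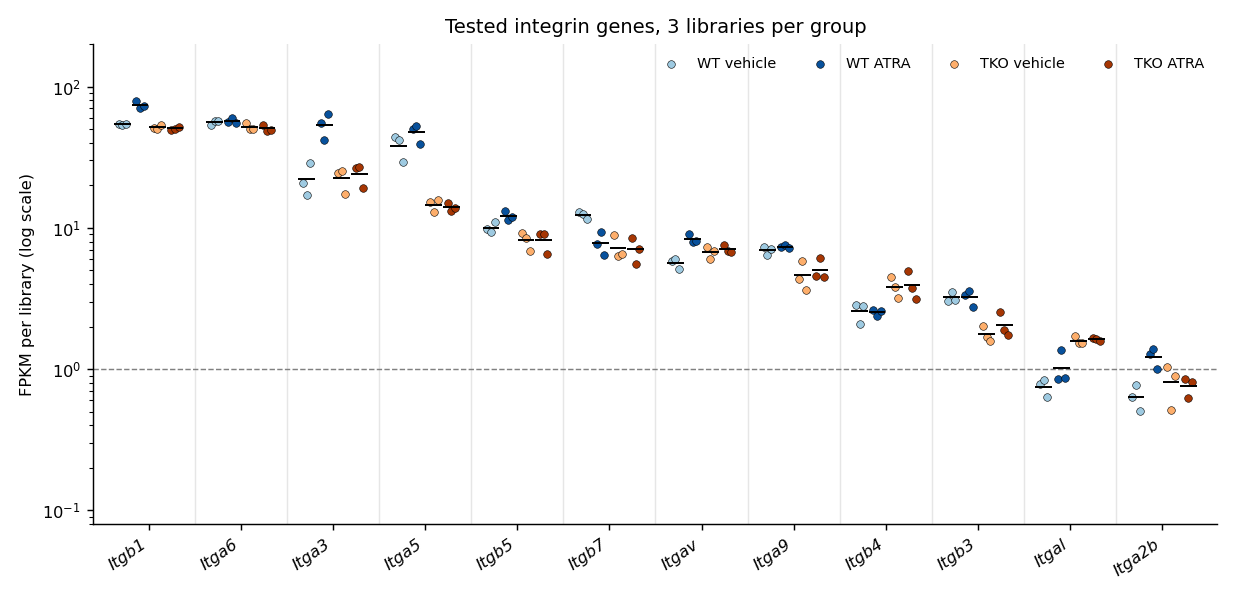
FPKM (log scale) of the 12 tested integrin genes in each library (points) with the group mean (short line); the dashed line marks 1 FPKM. Itga3 and Itgb1 are highest in WT with ATRA, while Itga5 is lower in all 6 TKO libraries than in all 6 WT libraries.

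For several genes the partner chain needed for a known protein was low. Col6a2 encodes a chain of the beaded filament collagen VI, whose other chains Col6a1 and Col6a3 stayed at or below 0.256 and 0.0325 FPKM. Col9a2 and Col9a3 form collagen IX with the product of Col9a1, which stayed at or below 0.0213 FPKM. The beta chain gene Itgb7 reached 12.4 ± 0.776 FPKM in WT with vehicle, while its partner genes Itga4 and Itgae stayed at or below 0.180 and 0.775 FPKM. Itgal, the alpha chain of the leukocyte integrin LFA-1, reached 1.70 FPKM in 1 library, and its partner Itgb2 stayed at or below 0.110. Of the 5 leukocyte alpha chains Itgad was listed at 0 in all 12 libraries.

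In WT cells ATRA was followed by higher levels of several collagens tested and of the integrin chains Itga3, Itgav, Itgb1 and Itga2b. Itga6, the laminin-binding chain with the highest level, was not called. Of 22 genes tested, 10 rose and 1 fell. Over all genes tested, 16.7% were called, 11.6% as higher and 5.14% as lower. The rises comprised 6 of the 10 collagens (Col13a1, Col6a2, Col8a2, Col18a1, Col5a1 and Col11a1) and 4 of the 12 integrin chains (Itga3, Itgav, Itgb1 and Itga2b), and the integrin chain that fell was Itgb7. The median difference was 0.37 for the 22 genes and 0.05 for all genes tested. Col6a2, Col8a2, Col11a1 and Itga2b reached 1 FPKM in fewer than 3 libraries outside WT with ATRA, so they were tested only through the group where they were high, and the counts and the median are descriptions only.

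Col13a1 (chr10:61838236-61979108, minus strand, GENCODE vM21 annotation of GRCm38, as for all coordinates here) showed the widest range. In WT it was at 5.71, 7.44 and 3.75 FPKM with vehicle and at 19.5, 24.6 and 14.0 with ATRA in the D, F and G libraries. In TKO it was at 0.679, 0.336 and 0.703 with vehicle and at 0.554, 0.475 and 0.478 with ATRA. The WT groups did not overlap, every WT library was above every TKO library, and the 2 TKO groups overlapped. The rise in WT was 1.63 ± 0.22 (SE; adjusted p = 0.000583), and the estimate in TKO was -0.06 with a 95% interval from -0.55 to 0.43. Its share of the summed collagen FPKM in WT was 7.27% ± 2.75 with vehicle and 15.0% ± 4.34 with ATRA.

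Col18a1 (chr10:77052178-77166548, minus strand) kept its place as the leading collagen of the set. It was at 50.4, 41.6 and 63.4 FPKM in WT with vehicle and at 80.1, 68.3 and 94.7 with ATRA. In TKO the values were 57.9, 74.2 and 78.6 with vehicle and 59.6, 73.3 and 81.3 with ATRA, inside the range of the WT libraries. The WT groups did not overlap, and the rise was 0.64 ± 0.18 (adjusted p = 0.0319). In TKO with vehicle Col18a1 gave 83.3% ± 3.35 of the summed FPKM of the 42 collagen genes, which leave out Col4a1 and Col4a2. The mean of Col18a1 was 51.8 FPKM in WT and 70.2 in TKO with vehicle (adjusted p = 0.0978). Col9a2 and Col13a1, the next of the set in WT, were lower in TKO.

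Col6a2 (chr10:76595762-76623630, minus strand) was at 0.829, 1.00 and 0.466 FPKM in WT with vehicle and at 2.10, 2.47 and 1.36 with ATRA. It was at 0.494, 0.106 and 0.316 in TKO with vehicle and at 0.359, 0.215 and 0.344 with ATRA. The WT groups did not overlap and the TKO groups did, and the rise in WT was 0.75 ± 0.17 (adjusted p = 0.0121). Col8a2 (chr4:126286793-126314330, plus strand), which encodes a network collagen of the cornea, had means of 0.412 ± 0.0440 and 1.37 ± 0.325 FPKM (SD, n = 3) in WT with vehicle and with ATRA, a rise of 0.74 ± 0.11 (adjusted p = 0.00125). Its TKO means were 0.259 ± 0.103 and 0.250 ± 0.0295.

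Of the minor fibrillar collagens, which regulate the width of collagen fibres, Col5a1 (chr2:27886425-28039514, plus strand) went from 2.48 ± 0.440 to 3.78 ± 0.522 FPKM in WT, a rise of 0.46 ± 0.13 (adjusted p = 0.0356). Col11a1 (chr3:114030540-114220718, plus strand) went from 1.05 ± 0.222 to 1.77 ± 0.316 FPKM, a rise of 0.43 ± 0.13 (adjusted p = 0.0475). Both calls were near the threshold: under quantile normalization the adjusted p was 0.325 for Col5a1 and 0.183 for Col11a1. Reads of Col5a1 cannot be separated from 2 overlapping transcripts on the other strand, which share 99 and 113 of its 8490 exon bases, because no source used here gives the strand setting of the counting. Col5a3, the third tested gene of this class, had means of 2.54 ± 0.203 and 2.11 ± 0.320 FPKM in WT and was not called (adjusted p = 0.252).

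Itga3 (chr11:95044474-95076801, minus strand), whose alpha 3 chain forms a laminin receptor with beta 1, had the largest integrin difference with ATRA in WT. It was at 20.7, 17.2 and 28.6 FPKM in WT with vehicle and at 54.8, 41.8 and 64.0 with ATRA. It was at 24.4, 25.3 and 17.3 in TKO with vehicle and at 26.6, 26.8 and 19.3 with ATRA. Each WT library with ATRA was above all other libraries, and both TKO groups lay within the range of WT with vehicle. The rise in WT was 1.24 ± 0.22 (adjusted p = 0.00278), and its share of the summed alpha chain FPKM went from 16.8% ± 4.76 to 29.9% ± 6.12.

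Itgb1 (chr8:128685654-128733200, plus strand) was at 53.9, 53.9 and 54.4 FPKM in WT with vehicle and at 78.6, 70.5 and 73.0 with ATRA. It was at 50.6, 50.2 and 53.6 in TKO with vehicle and at 49.6, 50.4 and 51.8 with ATRA. The WT groups were well separated and the TKO groups overlapped, with a rise of 0.45 ± 0.07 in WT (adjusted p = 0.00105) and a 95% interval from -0.17 to 0.12 in TKO. Its share of the summed beta chain FPKM in WT went from 65.7% ± 0.466 to 74.2% ± 1.53.

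Itga6 (chr2:71745616-71858416, plus strand), the other tested laminin-binding alpha chain, was called in no comparison. It was at 53.1, 57.4 and 56.6 FPKM in WT with vehicle, at 56.4, 59.7 and 55.3 with ATRA, at 55.0, 50.2 and 50.5 in TKO with vehicle and at 53.3, 48.5 and 49.6 with ATRA. All 4 groups lay close together, and the difference with ATRA in WT was 0.04 with a 95% interval from -0.12 to 0.20.

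Among the chains that bind the RGD motif of fibronectin and vitronectin, Itgav (chr2:83724397-83806916, plus strand) was at 5.82, 6.06 and 5.09 FPKM in WT with vehicle and at 9.03, 7.90 and 8.10 with ATRA. It was at 7.29, 6.03 and 6.89 in TKO with vehicle and at 7.56, 6.90 and 6.72 with ATRA. The WT groups did not overlap, with a rise of 0.49 ± 0.10 (adjusted p = 0.00771), and the TKO values lay between them or at their edges. Of its 10744 exon bases 634 overlap a transcript on the other strand. Itga2b (chr11:102453297-102470122, minus strand), the alpha chain of the platelet fibrinogen receptor, had WT means of 0.639 ± 0.131 and 1.22 ± 0.199 FPKM, a rise of 0.44 ± 0.13 (adjusted p = 0.0402).

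Itgb7 (chr15:102215995-102231944, minus strand) was the tested gene of the 22 that fell with ATRA in WT. It was at 13.0, 12.6 and 11.5 FPKM in WT with vehicle and at 7.70, 9.42 and 6.42 with ATRA. It was at 8.83, 6.37 and 6.50 in TKO with vehicle and at 8.45, 5.56 and 7.10 with ATRA. The WT libraries with vehicle stood above all 9 others, and the difference with ATRA in WT was -0.61 ± 0.17 (adjusted p = 0.0295). Among the tested beta chains in WT, Itgb3, Itgb4 and Itgb5 were not called, with differences of -0.00, -0.02 and 0.24.

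Of the 11 calls in WT, those of Col13a1, Col8a2 and Itgb1 held in every alternative fit, and those of Itga3 and Itgav in every fit except the one without both D libraries of WT (adjusted p = 0.0567 and 0.0940). Col11a1 lost its call without any 1 of 9 libraries, Itga2b of 8, Col5a1 of 7, Itgb7 of 5 and Col18a1 of 4, and Col6a2 lost it without the D library of WT with ATRA (adjusted p = 0.0509). A pseudocount of 0.1 called 1990 of all genes tested and 8 of the 22, without Col6a2, Col11a1 and Itga2b (adjusted p = 0.0530, 0.0830 and 0.0504). Col18a1 lost its call with median-of-ratios scaling (0.0924). Scaling by median-of-ratios factors called 1067 genes as higher and 1038 as lower, against 1428 and 635, and called 7 of the 22 genes as higher and 1 as lower; quantile normalization called 1071 and 858 genes, and 7 and 2 of the 22.

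Libraries with the same letter varied together within a genotype. With a block for the letter inside each genotype, 15 of the 22 genes were called in WT, 14 higher and 1 lower, adding Col9a2, Col26a1, Itga5 and Itgb5 to the rises; that fit called 55.7% of all genes tested. Itga5 was at 43.8, 41.7 and 29.1 FPKM in WT with vehicle and at 50.1, 52.6 and 39.3 with ATRA, so it was higher with ATRA in each of the 3 letters although the groups overlapped. Col26a1 went from 1.21, 2.67 and 0.716 FPKM to 2.29, 4.35 and 1.30, also higher in each letter.

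In TKO cells none of the 22 genes was called for ATRA against vehicle, and none had an unadjusted p under 0.05. Over all genes tested 0% were called, and 12 genes had an unadjusted p under 0.05. With the letter as a block 0% were called as well, with 354 genes and 1 of the 22 at an unadjusted p under 0.05. The median difference was 0.00 for the 22 genes and -0.00 for all genes tested. The fit without a block counts the spread between letters as error, which widens its intervals and raises its p-values. In that fit the interval of Itga3 ran from -0.37 to 0.60 and that of Col26a1 from -0.92 to 0.65. Moderate changes of these genes were therefore not detectable in that fit. Compared within each letter, Itga3 was slightly higher and Col26a1 lower with ATRA in TKO.

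**Figure D3:**
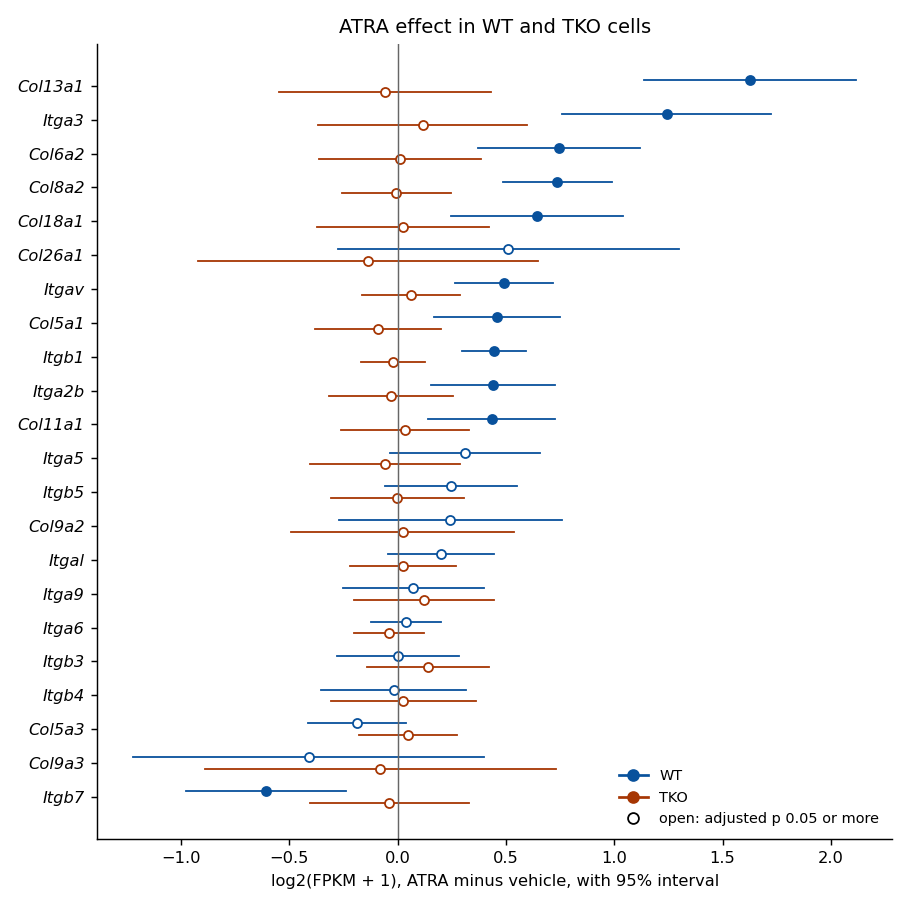
Difference between ATRA and vehicle on the log2(FPKM + 1) scale with its 95% interval for the 22 tested genes in WT (blue) and TKO (brown); filled points have an adjusted p under 0.05. In WT 11 points are filled, with Col13a1 at 1.63 and Itgb7 at -0.61, and in TKO none is.

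The direct test of whether the response to ATRA differed between genotypes called Col13a1, Col8a2 and Itgb1, all with a smaller response in TKO. The difference of the responses, TKO minus WT, was -1.69 ± 0.32 for Col13a1 (adjusted p = 0.0105), -0.74 ± 0.16 for Col8a2 (adjusted p = 0.0213) and -0.47 ± 0.09 for Itgb1 (adjusted p = 0.0149). Col8a2 reached 1 FPKM in WT with ATRA alone, so it was tested only through the group where it was high, and Col13a1 passed the filter through WT libraries. Over all genes tested 5.43% were called, 1.47% with a higher and 3.96% with a lower response in TKO. The median was -0.39 for the 22 genes and -0.06 for all genes tested. For the other genes called in WT the difference was not called: it was -1.13 for Itga3 (adjusted p = 0.0625), -0.74 for Col6a2 (adjusted p = 0.115) and -0.62 for Col18a1 (adjusted p = 0.223).

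With the same block 13 of the 22 genes were called for this difference, 12 with a lower response in TKO and Itgb7 with a higher one, while 39% of all genes tested were called. Itga3 was among them (adjusted p = 4.21e-06), as were Col6a2 and Col18a1. Without both D libraries of WT none of the 3 calls held, the adjusted p being 0.0813 for Col13a1, 0.118 for Col8a2 and 0.117 for Itgb1. The call of Col8a2 was also lost without the D library of WT with ATRA (0.0598), the D or G library of TKO with vehicle (0.0655 and 0.0584) or, in TKO with ATRA, the G library (0.0540), and with a pseudocount of 0.1 (0.0534) or quantile normalization (0.129). That of Itgb1 was lost with median-of-ratios scaling (0.0978).

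The sequences just before the start sites of the 3 genes with a called difference of responses are shown because these genes carry the called difference between genotypes. Each is 250 bases 5′ to 3′ on the gene's strand from RefSeq on GRCm38.p6, with every CG dinucleotide, the site of DNA methylation in mammals, in capitals. The window of Col13a1 is chr10:61979109-61979358 on the minus strand, that of Itgb1 is chr8:128685404-128685653 on the plus strand, and that of Col8a2 is chr4:126286544-126286793 on the plus strand.
Col13a1: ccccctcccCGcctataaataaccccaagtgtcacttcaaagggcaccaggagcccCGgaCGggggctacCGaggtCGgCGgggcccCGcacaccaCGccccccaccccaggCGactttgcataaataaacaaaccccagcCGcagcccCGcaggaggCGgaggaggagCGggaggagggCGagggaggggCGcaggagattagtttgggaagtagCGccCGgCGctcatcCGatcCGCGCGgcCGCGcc
Itgb1: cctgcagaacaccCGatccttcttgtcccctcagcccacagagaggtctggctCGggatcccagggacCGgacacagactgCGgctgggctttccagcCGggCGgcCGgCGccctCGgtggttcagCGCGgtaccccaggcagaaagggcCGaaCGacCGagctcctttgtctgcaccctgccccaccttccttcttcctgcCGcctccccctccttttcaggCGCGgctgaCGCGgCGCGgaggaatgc
Col8a2: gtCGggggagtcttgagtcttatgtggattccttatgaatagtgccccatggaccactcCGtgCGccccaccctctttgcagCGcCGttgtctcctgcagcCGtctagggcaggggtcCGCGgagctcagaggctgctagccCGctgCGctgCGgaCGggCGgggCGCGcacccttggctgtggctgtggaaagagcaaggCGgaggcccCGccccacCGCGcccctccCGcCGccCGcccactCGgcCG
They hold 24, 21 and 24 CG dinucleotides, against a median of 6 over the 32851 promoters in the table, and 68.8%, 68.0% and 70.0% of their bases are G or C, against a median of 52.4%. No methylation was measured here.

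Retinoic acid receptors, paired with retinoid X receptors, bind repeats of the half-site AGGTCA. The half-site was searched on both strands in 300 bases around each start, from 250 before it to 50 after it, and was found in 9 of 58 promoters of the 53 genes of the set with an entry (15.5%), against 16.3% of all promoters. Direct repeats of the half-site spaced by 5, 2 or 1 bases were found in none of the 58, and in 0.00913%, 0.00913% and 0.0396% of all promoters. Only exact copies of AGGTCA were searched. Repeats this rare would hardly be met among 58 promoters, so their absence tells nothing about the set. Of the genes called with ATRA in WT, Col11a1 had a half-site, as its reverse complement, 71 bases before the start; it is in capitals in the 250 bases at chr3:114030290-114030539 on the plus strand.
Col11a1: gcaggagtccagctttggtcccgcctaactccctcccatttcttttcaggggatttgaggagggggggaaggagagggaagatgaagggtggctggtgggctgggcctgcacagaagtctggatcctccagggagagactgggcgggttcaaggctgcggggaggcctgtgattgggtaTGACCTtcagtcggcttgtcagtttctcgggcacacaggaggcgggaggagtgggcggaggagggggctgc
A match is a run of letters and not evidence of binding, and the search covered this window alone.

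With vehicle alone, TKO cells had lower levels than WT cells of several collagens of the set and of the fibronectin receptor chain Itga5. Col4a1 and Col4a2, left out of the set, were called higher in TKO (1.12 and 1.05, adjusted p = 0.00821 and 0.00710). Of the 22 genes 7 were lower and 1 was higher in TKO with vehicle, while 24.6% of all genes tested were called, 11.8% as higher and 12.8% as lower. The median difference was -0.20 for the 22 genes and -0.02 for all genes tested. The lower genes were Col9a2, Col13a1, Col5a3, Itga5, Itgb7, Itgb3 and Itga9, and the higher gene was Itgal. Col13a1, Col9a2 and Col5a3 passed the filter through WT libraries and Itgal through TKO libraries, so these counts are descriptions as well.

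Col13a1, with the values given above, was lower in TKO by a log2 difference of -2.05 ± 0.22 (adjusted p = 0.000163). Col9a2 (chr4:121039385-121055322, plus strand) was at 7.20, 8.59 and 4.69 FPKM in WT and at 0.896, 0.543 and 1.17 in TKO with vehicle, and at 8.75, 10.6 and 5.53 and at 1.03, 0.712 and 0.913 with ATRA. Every WT library was above every TKO library, and the difference with vehicle was -2.05 ± 0.23 (adjusted p = 0.000211). Col5a3 (chr9:20770050-20815067, minus strand) was at 2.62, 2.69 and 2.31 FPKM in WT and at 0.537, 0.537 and 0.602 in TKO with vehicle. With ATRA it was at 1.76, 2.39 and 2.18 in WT and at 0.556, 0.577 and 0.709 in TKO, again without overlap, and the difference with vehicle was -1.18 ± 0.10 (adjusted p = 4.7e-05).

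Itga5 (chr15:103344286-103366763, minus strand), the alpha chain of the classic fibronectin receptor, was at 15.2, 12.9 and 15.7 FPKM in TKO with vehicle and at 15.0, 13.1 and 13.8 with ATRA, below all 6 WT values given above. Its difference with vehicle was -1.31 ± 0.16 (adjusted p = 0.000273), and its share of the summed alpha chain FPKM was 28.8% ± 5.52 in WT and 13.8% ± 1.76 in TKO. Itgb3, the partner of the alpha V chain in the vitronectin receptor, had means of 3.22 ± 0.284 FPKM in WT and 1.76 ± 0.233 in TKO, a difference of -0.61 ± 0.13 (adjusted p = 0.00593). Itgb7, with the values given above, was lower by -0.71 ± 0.17 (adjusted p = 0.0108).

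Itga9 (chr9:118606690-118901003, plus strand), which with beta 1 binds tenascin and other ligands, was at 7.27, 6.46 and 7.13 FPKM in WT and at 4.32, 5.85 and 3.65 in TKO with vehicle. With ATRA it was at 7.29, 7.59 and 7.18 in WT and at 4.55, 6.13 and 4.49 in TKO. The genotypes did not overlap, and the difference with vehicle was -0.52 ± 0.15 (adjusted p = 0.0249); this call was lost without 4 of the single libraries, with an adjusted p of 0.0841 at most. Itgal (chr7:127296260-127335138, plus strand) was higher in TKO, with means of 0.753 ± 0.102 and 1.59 ± 0.0962 FPKM and a difference of 0.57 ± 0.11 (adjusted p = 0.00434). The summed level of the 4 leukocyte markers in the table was 14.8 to 20.7 FPKM in WT and 32.3 to 37.0 in TKO with vehicle, nearly all from Cd68, while Ptprc, the defining leukocyte gene, did not pass 0.0729 FPKM in any library.

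With ATRA in both genotypes, 14 of the 22 genes were lower and 2 were higher in TKO. Over all genes tested 42.1% were called, 16.4% as higher and 25.7% as lower, and the median difference was -0.51 for the 22 genes and -0.07 for all genes tested. This comparison uses the same WT libraries with ATRA as the comparison within WT, so its values are not a separate line of evidence. Of the collagens 8 of 10 were lower: Col13a1, Col9a2, Col6a2, Col26a1, Col5a3, Col8a2, Col11a1 and Col5a1. Col6a2, Col8a2 and Col11a1 were tested only through WT with ATRA, and Col13a1, Col9a2, Col5a3 and Col26a1 only through WT libraries. This count is therefore a description only, and the part of the filter in its direction was not tested. The lower integrin chains were Itga5, Itga3, Itgb1, Itgb5, Itga9 and Itgb3, and the higher ones Itgal and Itgb4.

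The widest difference was that of Col13a1, -3.73 ± 0.22 (adjusted p = 6.98e-07), followed by Col9a2 at -2.27 ± 0.23 (adjusted p = 2.53e-05) and Itga5 at -1.68 ± 0.16 (adjusted p = 1.28e-05). Col6a2, Itga3 and Itgb1 were lower by -1.17, -1.11 and -0.54, genes whose adjusted p with vehicle had been 0.0845, 0.957 and 0.477. Col26a1 (chr5:136741759-136883209, minus strand) was at 0.937, 0.243 and 1.25 FPKM in TKO with vehicle and at 0.611, 0.227 and 1.06 with ATRA. Its groups did not overlap between genotypes with ATRA, and its difference was -1.10 ± 0.36 (adjusted p = 0.0282), a call lost without the D or F library of either group with ATRA (adjusted p = 0.109 at most).

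Itgb5 (chr16:33829665-33949338, plus strand), a further partner of alpha V, was at 9.77, 9.30 and 11.1 FPKM in WT with vehicle and at 13.1, 11.3 and 11.8 with ATRA. In TKO it was at 9.26, 8.45 and 6.82 with vehicle and at 9.02, 8.99 and 6.54 with ATRA. TKO was below WT in both treatments without overlap, and the difference was called with ATRA (-0.52 ± 0.14, adjusted p = 0.0115) and not with vehicle (-0.27, adjusted p = 0.175). Itgb4 (chr11:115974709-116008412, plus strand), the beta chain that pairs with alpha 6 in hemidesmosomes, had means of 2.53 ± 0.138 in WT and 3.94 ± 0.915 FPKM in TKO with ATRA, a difference of 0.47 ± 0.15 (adjusted p = 0.0288). It lies on chromosome 11, where the median difference between TKO and WT was 0.20 with vehicle and 0.16 with ATRA, against -0.03 and -0.08 on the other autosomes, and its call was lost without 5 of the single libraries, with an adjusted p of 0.117 at most. Of the 7015 exon bases of Itgb4, 537 overlap a transcript on the other strand. Of the other tested genes on chromosome 11, Itga3 and Itgb3 were called lower in TKO with ATRA and Itga2b was not called.

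**Figure D4:**
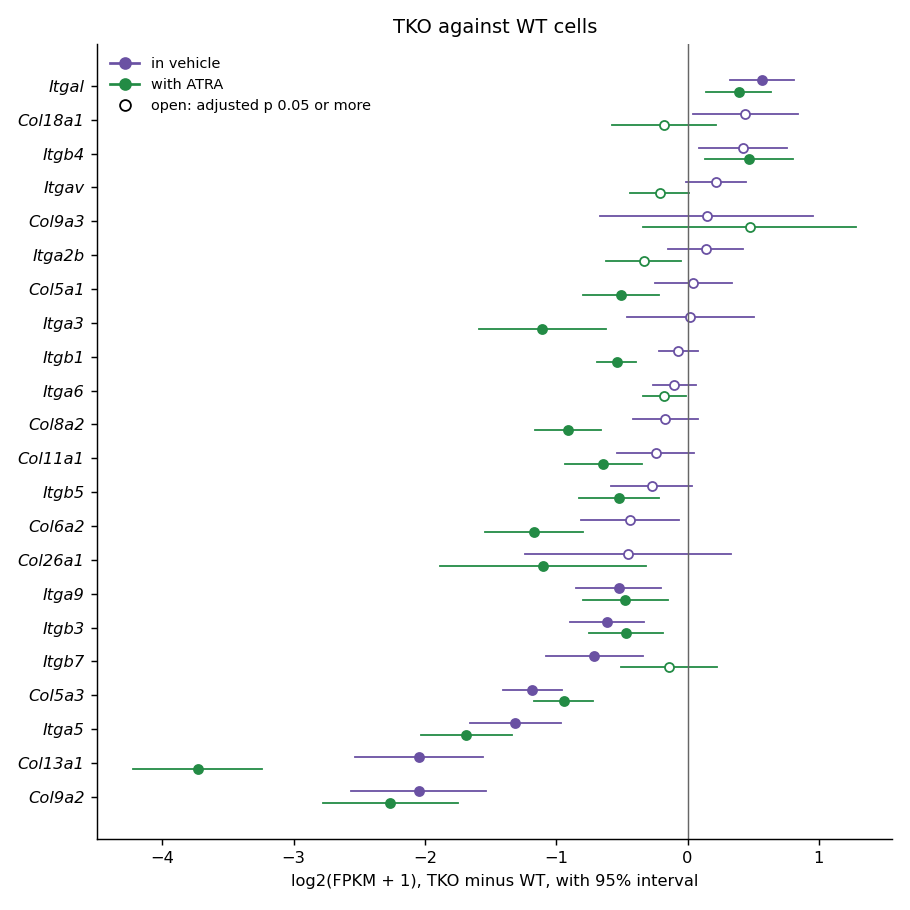
Difference between TKO and WT on the log2(FPKM + 1) scale with its 95% interval for the 22 tested genes, with vehicle (purple) and with ATRA (green); filled points have an adjusted p under 0.05. Col9a2, Col13a1, Itga5 and Col5a3 are low in TKO in both treatments, while Itga3 and Itgb1 are filled with ATRA and open with vehicle.

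Summed over the 42 collagen genes, levels were 74.4 to 83.3 FPKM in WT with vehicle, 128 to 133 in WT with ATRA, 72.3 to 94.9 in TKO with vehicle and 74.1 to 95.6 in TKO with ATRA. Summed over the 18 alpha chains they were 130 to 135, 176 to 183, 100 to 113 and 99.4 to 114 FPKM, and over the 9 beta chains 81.4 to 82.9, 96.7 to 105, 70.6 to 75.3 and 70.4 to 74.6. WT with ATRA was above the other groups in all 3 sums without overlap, and the integrin sums of TKO were below those of WT with vehicle. The summed level of 10 extraembryonic endoderm markers was 8.44 to 16.0 FPKM in WT with vehicle, 29.9 to 35.4 in WT with ATRA, 21.6 to 32.0 in TKO with vehicle and 20.1 to 34.3 in TKO with ATRA. Of the 8 that were tested, 2 were called with ATRA in WT, Gata6 and Sox7 as higher, and 0 in TKO. Gata6 had means of 1.08 and 11.9 FPKM in WT and 3.23 and 3.59 in TKO. Dab2 had 2.34 and 2.53 in WT and was not called there (adjusted p = 0.852). Of 4 tested trophoblast markers 1 was higher (Hand1) and 1 lower (Tfap2c) in TKO with vehicle. Kdr, the 1 mesoderm marker tested, was higher there and was tested only through TKO libraries. Of 4 tested neural markers 2 rose (Sox1 and Pax6) and 1 fell (Tubb3) with ATRA in WT. Over all genes tested 24.6% and 16.7% were called in these comparisons. The part of any of these marker changes, or of the stem cell, fibroblast and leukocyte ones, in the collagen and integrin levels was not tested. In these bulk samples fewer cells of a type and less RNA per cell cannot be told apart.

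**Figure D5:**
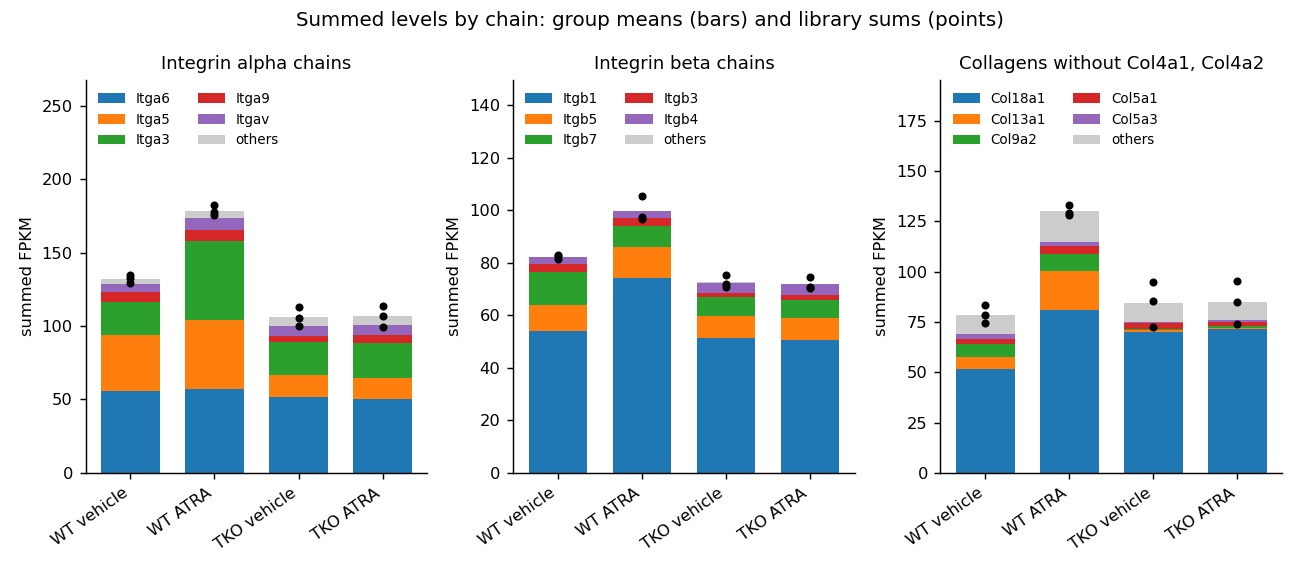
Summed FPKM of the 18 integrin alpha chains, the 9 integrin beta chains and the 42 collagen genes, stacked by gene as group means (bars) with the sum in each library (points). Itga3 and Itgb1 are larger in WT with ATRA, Itga5 is smaller in TKO, and Col18a1 is the largest part of the collagen sum in every group.

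Col9a3 (chr2:180597790-180622189, plus strand) was called in no comparison and varied widely between libraries of a group. Of its 3853 exon bases 234 overlap Tcfl5 on the other strand. It was at 1.95, 2.97 and 0.646 FPKM in WT with vehicle, at 0.846, 1.41 and 0.847 with ATRA, at 2.05, 0.855 and 3.60 in TKO with vehicle and at 1.89, 1.04 and 2.74 with ATRA. All 4 groups overlapped, and in WT the 95% interval of its difference with ATRA ran from -1.22 to 0.40.

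The 49 genes that were not tested were examined without the filter on low values, where 14.3% of 18910 genes were called for ATRA in WT, 0% in TKO and 4.55% for the difference of responses, and 17.4% and 33.2% for TKO against WT with vehicle and with ATRA. All values of the 49 genes are at or below 1.3 FPKM. For ATRA in WT 22 genes of the set were called without the filter, and the 11 added to those above were all higher with ATRA. They were Col4a5, Col23a1, Col25a1, Col16a1, Itga11, Col6a1, Col7a1, Col11a2, Itgb2, Col27a1 and Col1a1. Col4a5, a basement membrane chain, had WT means of 0.0444 FPKM with vehicle and 0.228 with ATRA. Itga11, a collagen receptor chain, had 0.0514 and 0.422, while its TKO means were 0.0482 and 0.0603.

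Some genes of the set are close neighbours. Col4a5 and Col4a6 start 1308 bases apart on opposite strands of the X chromosome, and Col4a6 stayed at or below 0.0493 FPKM. Col4a3 and Col4a4 start 71 bases apart on chromosome 1 and stayed at or below 0.0210 and 0.0202. In TKO with vehicle Col5a2, the usual partner of Col5a1 in collagen V, had a mean of 0.278 FPKM against 0.00931 in WT, and it was called without the filter (0.34, adjusted p = 0.000236). Without the filter 17 of the 70 genes of the set in that fit were called for TKO against WT with vehicle, 9 higher and 8 lower. Of all 18910 genes 17.4% were called there, 1756 higher and 1542 lower. With ATRA 30 of the set were called, 8 higher and 22 lower. Of all genes 33.2% were called there, 2335 higher and 3941 lower, so all genes leaned lower as well.

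Genes of the adhesion complex, which joins integrins to actin, changed in both directions. Of 20 tested genes of the adhesion complex 6 rose and 2 fell with ATRA in WT, with a median difference of 0.08, while 11.6% of all genes tested rose and 5.14% fell. Parva, which encodes parvin alpha, went from 3.12 ± 0.337 to 9.38 ± 0.288 FPKM (1.34, adjusted p = 1.81e-05), Zyx, which encodes zyxin, from 8.65 ± 0.473 to 15.1 ± 0.493 (0.73, adjusted p = 0.000163) and Tln1, which encodes talin 1, from 15.7 ± 2.08 to 25.8 ± 2.84 (0.68, adjusted p = 0.00137). In TKO none of the 20 was called. With vehicle 3 were higher and 4 lower in TKO than in WT, Zyx being higher (0.74, adjusted p = 0.000188) and Fermt2 and Lims2 lower (-0.41 and -0.84, adjusted p = 0.00241 and 0.00395), and with ATRA 2 were higher and 7 lower, among them Parva (-1.47), Lims2 (-1.04) and Bcar1 (-0.75). Over all genes tested 24.6% and 42.1% were called in these 2 comparisons, so the count of 9 of 20 is near the background. The difference of responses was called for 4 genes, 1 higher and 3 lower, Parva among the lower (-1.39, adjusted p = 0.000473). Over all genes tested 5.43% were called for that difference.

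Genes for collagen folding, processing and crosslinking changed in both directions. Of 17 tested, 7 rose and 2 fell with ATRA in WT, with a median of 0.27, while 11.6% of all genes tested rose and 5.14% fell. Serpinh1, which encodes the collagen chaperone HSP47, went from 58.5 ± 11.5 to 133 ± 11.1 FPKM (1.19, adjusted p = 0.000655), and Bmp1, a procollagen proteinase, from 1.49 ± 0.0994 to 3.96 ± 0.556 (0.99, adjusted p = 0.0106). Pcolce2, which enhances that proteinase, fell from 18.5 ± 0.638 to 7.86 ± 1.17 (-1.14, adjusted p = 0.000115). None was called in TKO, where Serpinh1 had means of 32.6 ± 4.86 and 30.3 ± 5.41 FPKM. The difference of responses was called for Pcolce2 (1.21) and Serpinh1 (-1.29), against 5.43% of all genes tested. With vehicle 2 were higher and 3 lower in TKO, Plod2 being higher (0.89, adjusted p = 0.00211) and Adamts14 lower (-2.04, adjusted p = 8.89e-06), and with ATRA 3 were higher and 6 lower, against 24.6% and 42.1% of all genes called in these comparisons, so the count of 5 of 17 is near the background.

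The other ligands of integrins were mostly higher in TKO. Of 18 tested, 13 were higher and 0 lower in TKO with vehicle, with a median of 0.76, and 12 were higher and 3 lower with ATRA. Over all genes tested 11.8% were higher and 12.8% lower with vehicle, and 16.4% and 25.7% with ATRA. The integrin-binding matricellular genes Cyr61, Ctgf and Thbs1 had vehicle means of 1.39 ± 0.401, 2.62 ± 0.546 and 0.0686 ± 0.0203 FPKM in WT and of 12.4 ± 2.28, 15.0 ± 2.71 and 2.57 ± 0.383 in TKO. Their differences were 2.49 (adjusted p = 7.12e-06), 2.15 (adjusted p = 1.30e-05) and 1.74 (adjusted p = 9.14e-06), Thbs1 having passed the filter through TKO libraries. Spp1, which encodes osteopontin, was higher in TKO by 2.57 with ATRA (adjusted p = 2.94e-05). With ATRA in WT 5 rose and 3 fell, while 11.6% of all genes tested rose and 5.14% fell. Agrn went from 26.0 ± 2.02 to 53.0 ± 8.28 FPKM (0.99, adjusted p = 0.000188) and Nid1 from 51.5 ± 0.446 down to 31.1 ± 4.04 (-0.72, adjusted p = 0.000390). None of the 18 was called for ATRA in TKO. The difference of responses was called for 4 of the 18, 1 higher and 3 lower, against 5.43% of all genes tested.

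Of the non-integrin collagen receptors 3 were tested. Mrc2, which takes up collagen for breakdown, went from 0.525 ± 0.122 to 5.39 ± 0.702 FPKM with ATRA in WT (2.07, adjusted p = 5.76e-07) and had means of 0.855 ± 0.116 and 0.797 ± 0.0548 in TKO, a difference of responses of -2.11 (adjusted p = 1.98e-05). It reached 1 FPKM in WT with ATRA alone and so was tested only through the group where it was high. Gpr56 and Ddr1 were higher in TKO with vehicle (0.94, adjusted p = 0.00999, and 0.40, adjusted p = 0.0329) and with ATRA (1.23 and 0.55), and were not called for ATRA in either genotype.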

How the data were processed

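RNA of 12 libraries (4 groups of 3) was analysed from 1 gene table. Its deposited values were read as FPKM from their range, since the header gives no unit. The submitters' processing notes list STAR, Cufflinks and GRCm38, with neither versions nor roles, and no source used here gives the strand setting. FPKM holds no read counts, so the depth is unknown and counting intervals cannot be given. Each library listed 11397 to 12193 genes at 1 FPKM or more. Of 23686 rows, 18 repeats were removed, leaving 23668. All sample columns were used (0 unused); columns name the group and a letter, and were matched to groups only.

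Log2(FPKM + 1) of the deposited values was fitted with limma 3.58.1 in R 4.3.3: 1 mean per group, 12 libraries in 1 fit (8 residual degrees of freedom), mean-variance trend, robust settings and Benjamini-Hochberg adjustment over the 12362 genes that reached 1 FPKM in 3 or more libraries. The fit was tested on simulated data with independent noise in each library. The simulation held no letter effect, so it does not check the fit under the pairing by letter described below. Tables and figures used Python 3.11.15, pandas 2.3.3 and matplotlib 3.10.9. The table's positions differ from GRCm38, so coordinates came from GENCODE vM21 by symbol. Each tested gene called in at least 1 comparison is named; values in each library are given for those whose higher group reached 5 FPKM or whose difference was at least 1, and for genes called nowhere; of each other list up to 3 genes per comparison by adjusted p are named. Members and lists were chosen with earlier results of these data known.

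Same-letter libraries of a genotype deviated together from their group means (r from 0.376 to 0.864 over 6 pairs across genes), and same-letter libraries of different genotypes did not (-0.515 to 0.287), so the letter was taken as pairing libraries within a genotype; no label says what it marks. Alternatives were another pseudocount (0.1), no filter, 2 other scalings, letter blocks, only the groups compared, no trend or robust settings, and leaving out libraries.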

Additional observations from a re-analysis of the deposited data

Results flagged for a closer look

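The response to ATRA differed between genotypes by a direct test for 3 of the 22 genes tested, against 5.43% of all genes tested. The response in TKO minus that in WT was -1.69 on the log2(FPKM + 1) scale for Col13a1, -0.74 for Col8a2 and -0.47 for Itgb1, and each gene was higher with ATRA in WT and showed no call in TKO. Without both D libraries of WT none of the 3 calls held. Those of Col8a2 and Itgb1 were also lost in other alternatives, that of Itgb1 with median-of-ratios scaling. Col8a2 reached 1 FPKM in WT with ATRA alone, so it was tested only through the group where it was high.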

How the results depend on the processing

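FPKM without counts, 3 libraries a group and letters nested in genotypes limit these results, and most genes of the set lie too low to test. Of 38 called values of single genes, 0 reversed in any alternative and 18 kept their call in all of them. With 1 library left out, called genes numbered 1189 to 2179 for ATRA in WT (5 to 11 of the set), 406 to 710 for the difference of responses (2 to 4), 1934 to 3172 for TKO against WT with vehicle (7 to 9) and 4026 to 5443 with ATRA (12 to 17). For ATRA in WT, 1312 and 1189 genes were called without the D library of WT with vehicle or with ATRA. For the difference 444 and 406 were called without these, 413 without the D library of TKO with vehicle and 447 without the G library of TKO with ATRA. For TKO against WT with vehicle 1934 and 1942 were called without the D library of WT or TKO. Of the set, 5 were called for ATRA in WT without its D library with ATRA and 6 (1570 genes in all) without its F library with vehicle. Without both D libraries of WT (chosen after seeing the data) the counts were 741 genes and 3 of the set for ATRA in WT and 218 and 0 for the difference. For TKO against WT they were 1617 and 6 with vehicle, and 3612 and 9 with ATRA. The cause was not tested.

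With the letter as a replicate block within genotype 6887 genes were called for ATRA in WT, and 4820 genes and 13 of the set for the difference; without the filter too, 7824 and 31, and 5096 and 26. With genotype and letter as a random effect (correlation 0.814, chosen after seeing the data) the counts were 6961 and 17, and 4998 and 14. The block within genotype gives no comparison of genotypes. Without the filter, ATRA in WT gave 22 calls in the set, the difference 8, and 17 were called for TKO against WT with vehicle and 30 with ATRA. Over all genes the shares called in these comparisons were 14.3%, 4.55%, 17.4% and 33.2%. With only the groups compared in the fit, 1644 genes and 7 of the set were called for ATRA in WT. For ATRA in TKO 1 gene and 0 of the set were called. Median-of-ratios scaling moved the median of all genes by 0.10 for TKO against WT with ATRA and called 2664 genes as higher and 2480 as lower, against 2023 and 3178; the median of the set lay 0.45 below that of all genes, against 0.44 before. For the difference it called 256 as higher and 371 as lower, against 182 and 489.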
